A study of Mus musculus with 6 samples.

Results

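The nuclear regulators of oxidative metabolism described here are 9 genes: the coactivators Ppargc1a and Ppargc1b, the oestrogen-related receptors Esrra and Esrrg, the fatty acid receptors Ppara and Ppard, and the mitochondrial biogenesis factors Nrf1, Gabpa and Tfam. They were found by exact symbol among the 19458 genes listed for each library, and all 9 were matched. The Nrf1 entry carries the Entrez number 18181, which is nuclear respiratory factor 1 and not the unrelated factor Nfe2l1 that shares the nickname. All 9 passed the filter on low counts.

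The study compared gastrocnemius, the large calf muscle, from Tmem182-/- mice (3 libraries) and from wild-type mice (3 libraries) by RNA-seq. Both groups were C57BL/6 mice aged 9 weeks. Tmem182 codes for a transmembrane protein made mainly in skeletal and heart muscle, and the comparison asks which transcripts differ in muscle that lacks it. The genotype label is Tmem182-/- for all 3 knockout libraries, but the source labels of knockout libraries 2 and 3 name tmem183-/- and tmem184-/-, and the genotype label was followed. The extraction text speaks of cultured myoblasts and myotubes, whereas the tissue label gives skeletal muscle, which was followed. The sources used here do not give how the knockout was made, the sex of the mice or whether each library came from its own mouse. The p-values below therefore measure only sample-to-sample spread, part of which may be technical.

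PGC-1 coactivators, the products of Ppargc1a and Ppargc1b, bind no DNA on their own and raise transcription by docking on receptors and factors such as ERR, PPAR and NRF1. The ERR receptors drive genes of the citric acid cycle and the respiratory chain, and the PPARs drive fatty acid uptake and oxidation. NRF1 and GABP drive respiratory subunits and Tfam, whose product packages mitochondrial DNA and takes part in starting its transcription. In skeletal muscle this network is known for matching mitochondrial content to endurance activity, and PGC-1α, PPARδ and ERRγ are each known to favour oxidative fibres when overexpressed in mouse muscle.

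Tmem182 averaged 4.23 ± 2.03 FPKM in the knockout libraries and 129.9 ± 15.2 FPKM in the wild-type libraries (SD, n = 3 each). FPKM are fragments scaled to transcript length and library total. It fell by 5.02 on the log2 scale (SE 0.30; edgeR quasi-likelihood test, adjusted p = 0.00391), with 6.23, 4.30 and 2.17 FPKM in knockout libraries 1 to 3 and 120.97 FPKM or more in each wild-type library. Totals ran from 16212341 to 18672630 expected counts per library, and the 9 regulators had between 88 and 1711.51 counts each. Knockout library 1 stood apart from the rest: its 10 most abundant genes took 22.0% of the counts, against 28.2% to 31.9% in the other 5, and its TMM scaling factor was 1.19, against 0.933 to 1.04. All 10 skeletal muscle markers were detected in every library, the lowest being Ttn at 163.3 FPKM. The 6 cardiac markers summed to 7.24 to 10.51 FPKM in knockout and 7.04 to 14.78 FPKM in wild-type libraries. Of the atrial markers among them, Myl7 was at 0 in all 6 libraries, whereas Myl4 had 3.72 to 13.24 FPKM.

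Other tissues and fibre types moved with the libraries as well. The summed level of 15 slow-fibre genes was 3836, 2177 and 255.3 FPKM in knockout libraries 1 to 3, against 1154, 163.6 and 892.01 FPKM in wild-type libraries 1 to 3. Slow-fibre RNA was thus high in 4 libraries and low in knockout library 3 and wild-type library 2. The 8 white adipocyte markers summed to 105.6 to 273.2 FPKM in knockout and 86.5 to 156.8 FPKM in wild-type libraries, and the 8 endothelial markers to 76.5 to 172.1 FPKM in knockout and 79.5 to 128.9 FPKM in wild-type libraries. The macrophage markers summed to 22.6 to 73.2 FPKM in knockout and 19.9 to 28.6 FPKM in wild-type libraries, and the Schwann cell markers to 50.4 to 310.3 FPKM in knockout and 20.2 to 204.5 FPKM in wild-type libraries. None of the markers of these 4 cell types was at 0 in any library, and knockout library 1 had the highest sum for each. The 5 brown adipocyte markers summed to 3.65 FPKM at most, in knockout library 1, and Ucp1 was at 0 in every library. In bulk muscle, fewer cells of a type and less RNA per cell cannot be told apart.

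Promoters from RefSeq on GRCm38.p6, spanning 250 bases before to 50 after an annotated start, were matched for 8 of the 9 regulators. The 4 printed here, of 300 bases each, hold letters that match sites of factors of this network or of the cyclic AMP pathway. That pathway is known to act on Ppargc1a. The Esrra and Ppard promoters hold such letters too and are not printed. Capitals mark matches, on either strand, to the core of the ETS factor GABP (CCGGAAG), to an NRF1 element (GCGCNTGCG) or to the cyclic AMP response element half-site (TGACG). The printed windows are chr5:51567676-51567975 on the minus strand for Ppargc1a, chr15:85735526-85735825 on the plus strand for Ppara, chr10:71237995-71238294 on the minus strand for Tfam and chr16:84834874-84835173 on the plus strand for Gabpa. All are written 5′ to 3′ in the direction of the gene.
Ppargc1a: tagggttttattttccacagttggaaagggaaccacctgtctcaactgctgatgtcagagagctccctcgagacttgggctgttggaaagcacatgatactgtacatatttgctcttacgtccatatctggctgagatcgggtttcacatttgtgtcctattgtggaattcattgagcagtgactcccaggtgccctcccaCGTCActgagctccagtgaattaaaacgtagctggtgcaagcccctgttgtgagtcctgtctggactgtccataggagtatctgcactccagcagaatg
Ppara: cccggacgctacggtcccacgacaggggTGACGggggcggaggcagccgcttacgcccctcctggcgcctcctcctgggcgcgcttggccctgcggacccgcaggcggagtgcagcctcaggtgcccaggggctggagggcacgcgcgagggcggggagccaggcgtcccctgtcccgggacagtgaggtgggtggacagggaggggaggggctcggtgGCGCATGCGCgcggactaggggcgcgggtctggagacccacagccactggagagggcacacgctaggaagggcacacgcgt
Tfam: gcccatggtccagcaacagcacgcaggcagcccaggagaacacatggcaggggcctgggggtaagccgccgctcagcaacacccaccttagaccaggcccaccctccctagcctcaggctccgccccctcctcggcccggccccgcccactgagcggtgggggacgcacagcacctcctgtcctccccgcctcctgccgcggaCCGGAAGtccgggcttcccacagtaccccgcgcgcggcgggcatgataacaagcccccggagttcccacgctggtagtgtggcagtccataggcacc
Gabpa: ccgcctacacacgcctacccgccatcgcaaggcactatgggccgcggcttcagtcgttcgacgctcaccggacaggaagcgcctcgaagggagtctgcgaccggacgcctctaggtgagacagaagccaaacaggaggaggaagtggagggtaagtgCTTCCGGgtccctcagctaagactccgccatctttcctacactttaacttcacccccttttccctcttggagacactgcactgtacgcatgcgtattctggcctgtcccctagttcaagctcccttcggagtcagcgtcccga

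The Tfam window held the GABP core 47 bases before the start and the Gabpa window held it on the other strand, beginning 93 bases before the start. That core occurs in 8.86% of the 32851 promoters in the table. The Ppara window held overlapping NRF1 matches on both strands, from 31 bases before the start, and the Esrra window held 1 match that begins 95 bases before it. The NRF1 letters occur in 6.31% of all promoters. The half-site of the cyclic AMP response element lay 49 bases before the Ppargc1a start and also in the Ppara and Ppard windows, and 20.8% of all promoters hold it. The ERR half-site AAGGTCA, held by 4.72% of all promoters, was found in none of the windows of these regulators. A match describes letters only, and its absence says only that those letters are not in the window.

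None of the 9 regulators passed the test between genotypes. The edgeR adjusted p was 0.994 for each, and DESeq2 called none either. Of all 12774 genes tested, edgeR called 0.00783% in either direction, which was Tmem182 alone, with 0% higher and 0.00783% lower, and DESeq2 called 0.047% of 12773. None of the 9 had an unadjusted edgeR p under 0.05, against 3.55% of all genes. On log2 CPM (counts scaled to the library total, with TMM), the groups overlapped for all 9, whereas they stood apart for 9.18% of all genes, 4.67% with the knockout higher and 4.51% with it lower. The estimates leaned upward: 8 of the 9 were above 0, against 51.1% of all genes, and their median log2 fold change was 0.15, against 0.0046 over all genes. No test was made of that lean, and it is followed library by library below.

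**Figure D1:**
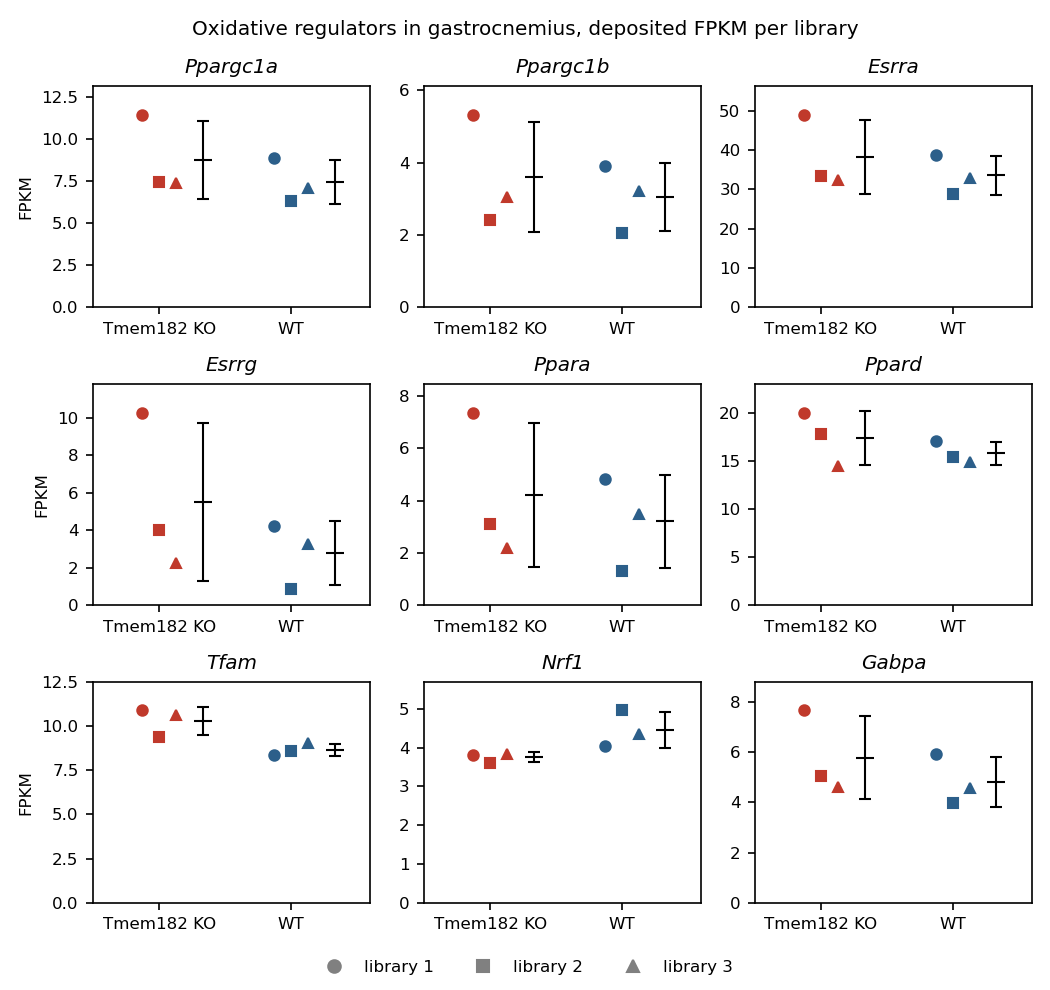
Level of each of the 9 regulators in FPKM, as deposited, with 1 point per library (3 knockout, 3 wild type; the symbol gives the library number) and the group mean ± SD. On this scale knockout library 1 is the highest point for 8 of the 9 genes and wild-type library 2 is the lowest for 6. With TMM scaling, knockout library 1 is the highest for 6 of the 9 and the lowest for Nrf1.

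Ppargc1a encodes PGC-1α, the inducible coactivator of mitochondrial biogenesis, and spans chr5:51454250-51567726 (minus strand) of GRCm38. It had 11.42, 7.45 and 7.36 FPKM in knockout libraries 1 to 3, against 8.85, 6.29 and 7.10 FPKM in wild-type libraries 1 to 3. Knockout library 1 was the highest, wild-type library 1 came next and the groups overlapped. Its fitted log2 difference was 0.15 (SE 0.14, 95% interval -0.17 to 0.46; exact two-sided permutation p = 0.4, where 3 against 3 libraries allow 0.1 at the smallest).

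Ppargc1b encodes PGC-1β, the coactivator associated with basal mitochondrial capacity, and spans chr18:61298136-61400431 (minus strand), with the microRNA gene Mir378a inside it. It had 5.32, 2.41 and 3.06 FPKM in Tmem182-/- muscle, against 3.91, 2.04 and 3.21 FPKM in wild type. Knockout libraries 2 and 3 both lay below wild-type libraries 1 and 3, and knockout library 1 lay above all. The fit gave a log2 fold change of 0.06 (SE 0.27, interval -0.58 to 0.70), an interval that holds changes of either direction. Another relative, Pprc1, the PGC-1-related coactivator, was named after its values were seen. It had 6.10, 5.12 and 4.79 FPKM in knockout libraries, against 5.16, 7.46 and 5.07 FPKM in wild type, where its highest value came from the library in which Ppargc1a and Ppargc1b were lowest. Its log2 fold change was -0.22 (SE 0.17).

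Ppargc1a was the more abundant coactivator per length in every library. The ratio of Ppargc1a to Ppargc1b FPKM was 2.15, 3.09 and 2.41 in the knockout, against 2.26, 3.08 and 2.21 in wild type. The ranges of the genotypes nearly coincided, and the difference of the mean log2 ratios was 0.02 (exact permutation p = 0.9; 0.9 adjusted over the 3 ratios tested).

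Esrra encodes ERRα, the most abundant ERR receptor of muscle here, and spans chr19:6910977-6921813 (minus strand). It had 49.02, 33.33 and 32.42 FPKM in Tmem182-/- muscle, against 38.78, 28.96 and 32.97 FPKM in wild type. The groups overlapped, since wild-type library 1 exceeded knockout libraries 2 and 3. The estimated log2 fold change stood at 0.11 (SE 0.12, interval -0.17 to 0.40). Trmt112 lies on the opposite strand over an Esrra exon, and the handling of strand is not given, so reads from the shared stretch cannot be told apart. Trmt112 itself had 34.69, 32.55 and 33.04 FPKM in knockout libraries, against 36.98, 44.16 and 33.61 FPKM in wild type, and so was highest where Esrra was lowest.

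Esrrg encodes ERRγ, a receptor enriched in oxidative muscle and heart, and spans chr1:187608791-188214885 (plus strand), with the annotated antisense genes Gm36388 and 9330162B11Rik inside its span. It had 10.27, 3.99 and 2.25 FPKM in Tmem182-/- muscle, against 4.21, 0.86 and 3.27 FPKM in wild type. These values rest on 896, 380 and 216 counts in the knockout, against 406, 88 and 321 counts in wild type. Knockout library 1 exceeded all others and wild-type library 2 was far below all others, while the remaining 4 interleaved. The log2 fold change of 0.83 was the largest of the 9 regulators, with an SE of 0.60 and an interval from -0.56 to 2.21. Esrrb, the ERRβ gene, was named after its values were seen and showed the same order of extremes. It had 4.42, 2.10 and 0.65 FPKM in knockout libraries, against 1.75, 0.30 and 1.52 FPKM in wild type, with a log2 fold change of 0.91 (SE 0.71).

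The balance of the ERR receptors varied widely between libraries of 1 genotype. The ratio of Esrra to Esrrg FPKM was 4.77, 8.35 and 14.4 in the knockout, against 9.21, 33.7 and 10.1 in wild type. Wild-type library 2 had by far the highest ratio and knockout library 1 the lowest, and knockout library 3 lay above wild-type libraries 1 and 3. The difference of the mean log2 ratios was -0.81 (exact permutation p = 0.4; 0.9 adjusted over the 3 ratios).

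Ppara encodes PPARα, the receptor of the fasting response in liver that also drives fatty acid oxidation in muscle, and spans chr15:85734983-85802819 (plus strand). It had 7.37, 3.11 and 2.19 FPKM in Tmem182-/- muscle, against 4.83, 1.30 and 3.49 FPKM in wild type. The spread resembled that of Esrrg: knockout library 1 was highest, wild-type library 2 lowest, and knockout libraries 2 and 3 lay below wild-type libraries 1 and 3. For Ppara the log2 estimate was 0.28 (SE 0.49, interval -0.85 to 1.41).

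Ppard encodes PPARδ, the PPAR of oxidative muscle, and spans chr17:28232700-28301474 (plus strand). It had 20, 17.80 and 14.42 FPKM in knockout libraries, against 17.07, 15.37 and 14.84 FPKM in wild type. The knockout libraries took both the highest and the lowest place, so the groups overlapped. For Ppard the log2 estimate was 0.07 (SE 0.10), and its interval of -0.16 to 0.30 was the narrowest of the 9. Pparg, the adipocyte PPAR, was named after its values were seen. It had 2.39, 0.95 and 0.60 FPKM in Tmem182-/- muscle, against 1.23, 0.65 and 0.72 FPKM in wild type (log2 estimate 0.45, SE 0.44), and its highest library was also the one with the most adipocyte RNA. The part of adipocyte RNA in these values was not tested.

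PPARα RNA was a minor form beside PPARδ in all libraries. The ratio of Ppara to Ppard FPKM was 0.369, 0.175 and 0.152 in the knockout, against 0.283, 0.0846 and 0.235 in wild type. Values were high in library 1 of each genotype and lowest in wild-type library 2. The difference of the mean log2 ratios was 0.27 (exact permutation p = 0.8; 0.9 adjusted over the 3 ratios).

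Nrf1 encodes nuclear respiratory factor 1, a DNA-binding activator of respiratory and mitochondrial import genes, and spans chr6:30047988-30153458 (plus strand). It had 3.81, 3.60 and 3.84 FPKM in knockout libraries, against 4.04, 4.96 and 4.35 FPKM in wild type. All knockout values were below all wild-type values on this scale, as for 1.7% of all genes. With TMM scaling the groups overlapped, at 12.7, 15.1 and 15.7 CPM in the knockout and 14.7, 18.98 and 16.5 CPM in wild type. The fitted log2 difference for Nrf1 was -0.21 (SE 0.14, interval -0.53 to 0.11; edgeR unadjusted p = 0.159), the only estimate of the 9 below 0.

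Gabpa encodes the DNA-binding α subunit of GABP, also called nuclear respiratory factor 2, and spans chr16:84834925-84863779 (plus strand). It had 7.66, 5.05 and 4.60 FPKM in Tmem182-/- muscle, against 5.92, 3.98 and 4.57 FPKM in wild type. Library 1 was the highest of each genotype and the groups overlapped. Gabpa had a log2 fold change of 0.16 (SE 0.15, interval -0.20 to 0.52). Atp5j, a subunit gene of ATP synthase, lies on the opposite strand over a Gabpa exon, and its far more abundant RNA had 413.9, 292.7 and 279.6 FPKM in knockout libraries, against 312.7, 231.97 and 300.2 FPKM in wild type. Both genes were highest in knockout library 1 and lowest in wild-type library 2, and reads from the shared stretch cannot be told apart.

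Tfam encodes the mitochondrial transcription factor A, the packaging protein of mitochondrial DNA, and spans chr10:71225464-71238280 (minus strand). It had 10.89, 9.39 and 10.61 FPKM in Tmem182-/- muscle, against 8.37, 8.61 and 9.02 FPKM in wild type. All knockout values were above all wild-type values on this scale, as for 5.86% of all genes, and the groups stood apart in either direction on the FPKM scale for 7.55% of all genes. With TMM scaling they overlapped narrowly, at 25.1, 27.8 and 29.2 CPM in the knockout and 22.2, 23.1 and 25.4 CPM in wild type. Tfam had a log2 fold change of 0.22 (SE 0.10, interval -0.02 to 0.45), with the smallest unadjusted p of the 9 regulators by edgeR, 0.0663. No symbol of a gene encoded by mitochondrial DNA itself was found among the genes listed for each library, so such transcripts could not be analysed.

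**Figure D2:**
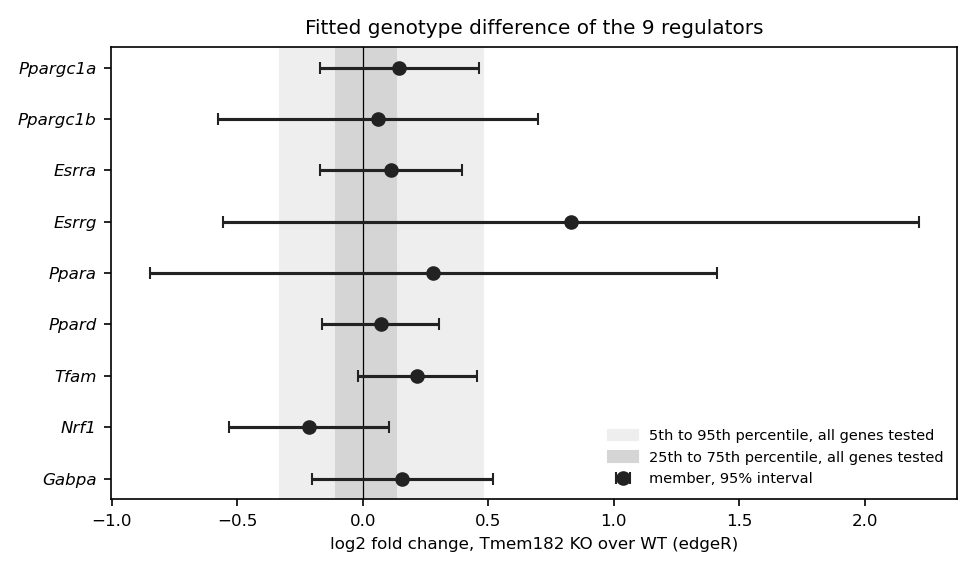
Log2 fold change, knockout over wild type, of each regulator from the edgeR fit, with its 95% interval; grey bands are the 25th to 75th and 5th to 95th percentiles of all genes tested and the vertical line is 0. All 9 intervals include 0, and they are widest for Esrrg (-0.56 to 2.21) and Ppara (-0.85 to 1.41).

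The intervals set what these libraries could show. For Ppard, Tfam, Esrra and Ppargc1a they lie within -0.17 to 0.46 on the log2 scale. For Esrrg and Ppara they reach past 1, so that even a change of that size was not detectable at this spread.

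The average levels of the 9 regulators spanned a wide range. Averaged over the 6 libraries, Esrra was highest at 35.9 FPKM, followed by Ppard at 16.6, Tfam at 9.48, Ppargc1a at 8.08 and Gabpa at 5.30 FPKM. Nrf1 at 4.10, Esrrg at 4.14, Ppara at 3.72 and Ppargc1b at 3.33 FPKM formed the low end, and by mean log2 FPKM their order was Nrf1, Ppara, Esrrg and Ppargc1b. Esrra exceeded Ppard in 6 of 6 libraries, by 1.10 on the log2 scale, and Ppard exceeded Tfam in 6 of 6, by 0.80. Ppargc1a exceeded Gabpa in 6 of 6, by 0.62 with an SD of only 0.05. For these 3 neighbours the exact paired permutation p was 0.0313, the smallest that 6 libraries allow, and 0.0833 after adjustment over the 8 neighbouring pairs. None of the pairs thus passed 0.05 after adjustment, and the order itself was taken from these same libraries. The other 5 neighbouring pairs exchanged places between libraries (exact paired permutation, adjusted p from 0.2 to 1).

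The regulators differed in how much they varied between libraries. The ratio of the highest to the lowest FPKM over all 6 libraries, both genotypes together, was 11.9 for Esrrg, 5.67 for Ppara and 2.61 for Ppargc1b, against 1.30 for Tfam, 1.38 for Nrf1 and 1.39 for Ppard. Within a genotype that ratio was 4.56 in knockout and 4.90 in wild-type libraries for Esrrg, 3.37 in knockout and 3.72 in wild-type libraries for Ppara, and 2.21 in knockout and 1.92 in wild-type libraries for Ppargc1b. The SD of log2 CPM within genotypes placed Esrrg above 98.6% and Ppara above 97.3% of all genes tested. Ppargc1b lay above 86.8% of them. Gabpa, Ppargc1a, Nrf1 and Esrra were in the middle, above 55.3%, 45.3%, 42.1% and 33.9% of genes. Tfam and Ppard were among the steadier genes, above 15.9% and 14.7%.

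The extremes of most regulators fell in the same libraries. On log2 CPM scaled by TMM, Ppargc1a, Ppargc1b, Esrra, Esrrg, Ppara and Gabpa were all highest in knockout library 1 and all lowest in wild-type library 2. How many of all genes had their extremes in these libraries was not counted. Esrrg lay 1.42 above its 6-library mean in knockout library 1 and 1.80 below it, at -1.80, in wild-type library 2, while Esrra lay at 0.22 and -0.24 in those libraries. Nrf1 ran the other way, being lowest in knockout library 1 and highest in wild-type library 2. Tfam was highest in knockout library 3 and lowest in wild-type library 1, and Ppard was highest in knockout library 2 and lowest in knockout library 3.

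**Figure D3:**
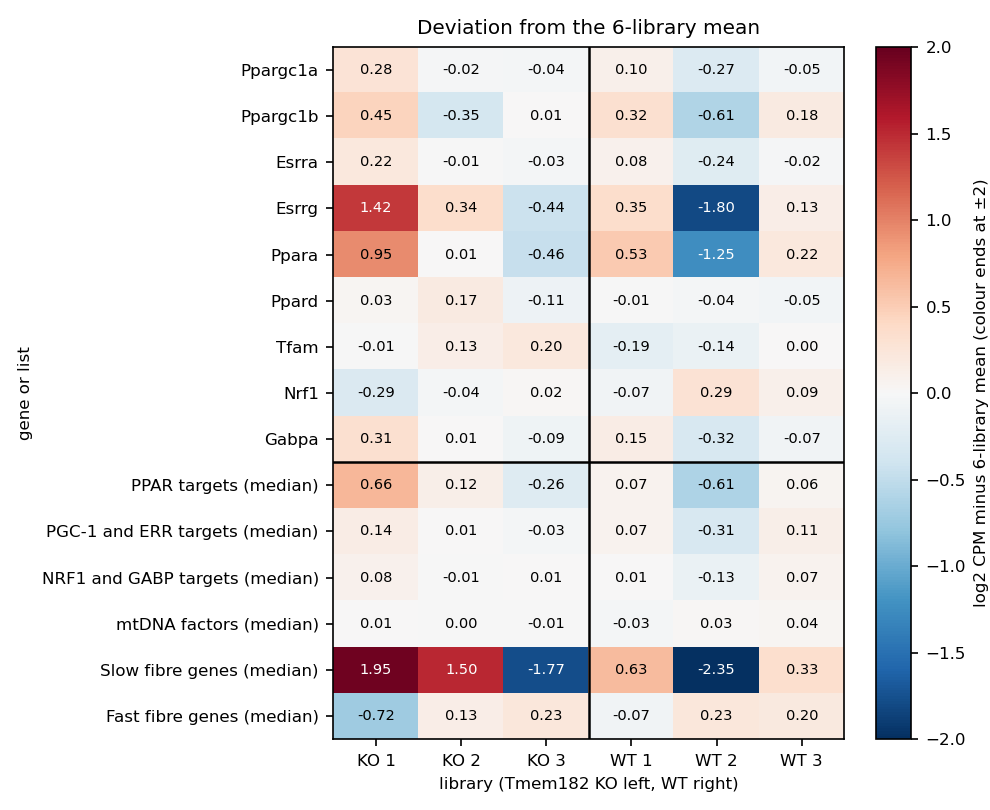
Deviation of each regulator, and of 4 network lists and the slow-fibre and fast-fibre lists (median over their genes), from its mean over the 6 libraries, in log2 CPM; columns are the 3 knockout and then the 3 wild-type libraries. Knockout library 1 is above the mean for 7 regulators with Esrrg at 1.42, and wild-type library 2 is below it for most, with Esrrg at -1.80.

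Some pairs of regulators differed little in their deviations over these 6 libraries. The root mean square difference of their deviations was 0.0348 on the log2 scale for Ppargc1a and Esrra, 0.0386 for Ppargc1a and Gabpa and 0.0671 for Esrra and Gabpa. The pair farthest apart was Esrrg and Nrf1, at 1.14, where Esrrg alone had an SD of 1.07 over the 6 libraries. The measure is also small for genes that vary little. Ppard and Tfam lay at 0.155, although their extremes fell in different libraries. The share of all genes that lie as near was not counted for these pairs. These values describe 6 libraries that share the same extremes in library makeup.

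Slow-fibre RNA shared some of this order. The mean log2 CPM of the 15 slow-fibre genes was 7.23, 6.71 and 3.30 in the knockout, against 5.87, 3.12 and 5.65 in wild type. Myh7, the slow myosin, ranged between 1.34 and 277.2 FPKM in knockout and between 5.71 and 76.5 FPKM in wild-type libraries. Myh2, the fast oxidative myosin, ranged between 162.9 and 1453 FPKM in knockout and between 28.15 and 439.8 FPKM in wild-type libraries, while Myh4, the fastest myosin, stayed within 6876 to 14156 FPKM in knockout and 11622 to 14396 FPKM in wild-type libraries. All 3 overlapped between genotypes. Esrrg followed the same order as the slow-fibre genes except that knockout library 2 and wild-type library 1 were level, at 22.2 CPM each. Ppara departed from it, since knockout library 2, second in slow-fibre level, ranked below both wild-type libraries 1 and 3 in Ppara, at 23.9 CPM. Ppargc1b departed further, with knockout library 2 second lowest at 26.3 CPM. With the slow-fibre level added to the model, the estimate was 0.42 for Esrrg and the median of the 9 regulators was 0.06. The part of other cell types in these values was not tested.

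Leaving out libraries moved the estimates of the variable regulators across 0. Without knockout library 1 the log2 fold change became -0.17 for Ppargc1b and -0.22 for Ppara, and 0.18 for Esrrg. Without wild-type library 2 it became -0.17 for Ppargc1b, -0.09 for Ppara and 0.40 for Esrrg. With either of these libraries left out alone, 6 of the 9 estimates were above 0. Without both, a step chosen after seeing the data, 2 of the 9 were above 0, namely Tfam at 0.26 and Ppard at 0.07, and the median was -0.06. Most regulators were highest in the one library and lowest in the other, so leaving out both lowers the difference by construction, and that value is given as a description only. Tfam ran from 0.17 to 0.27 with any single library left out, and Nrf1 from -0.30 to -0.11.

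**Figure D4:**
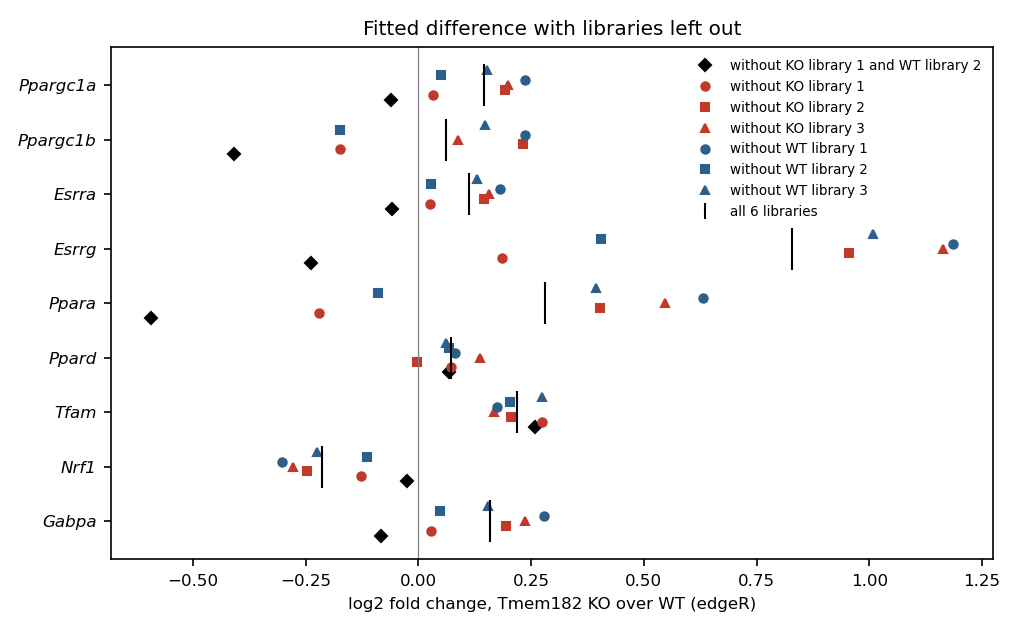
Log2 fold change, knockout over wild type, of each regulator with all 6 libraries (black ticks), with each library left out in turn, and without knockout library 1 and wild-type library 2 together. Tfam stays between 0.17 and 0.27 in every fit shown and Nrf1 below 0, whereas Ppara runs from -0.59 to 0.63.

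Genes whose library pattern was nearest to the variable regulators were found by the same root mean square difference over 6 libraries, among 10330 genes. For Esrrg these were Fabp3, the muscle fatty acid binding protein, at 0.174, Prkg1, a cyclic GMP-dependent kinase, at 0.174 and Pdlim1, a cytoskeletal adaptor, at 0.179. Fabp3 had 813.6, 308.98 and 135.1 FPKM in knockout libraries, against 267.6, 72.9 and 237.95 FPKM in wild type. For Ppara they were Grb14, an insulin receptor adaptor, at 0.121, Acadl, the long-chain acyl-CoA dehydrogenase, at 0.131 and Ckmt2, the sarcomeric mitochondrial creatine kinase, at 0.153. Acadl had 159.3, 64.2 and 44.4 FPKM in Tmem182-/- muscle, against 79.2, 25.1 and 63.8 FPKM in wild type. Both genes were highest in knockout library 1 and lowest in wild-type library 2. For Ppargc1b the nearest were Gnb5, Lhfp and Jdp2, at 0.0613 to 0.0898, but 671 genes lay within 0.25 of Ppargc1b, against 14 for Esrrg and 42 for Ppara.

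The wider network was followed through 160 genes in 6 lists, of which 157 were tested. None passed the edgeR test in either direction, nor the DESeq2 test, set against 0.00783% of all genes by edgeR. Among cofactors and partners 10 of 27 estimates were above 0, and the median was -0.04. Over all genes tested, 51.1% were above 0, a share to set beside each list. Gabpb2, a β subunit gene of GABP, had the smallest p of that list, with 4.18, 2.97 and 3.47 FPKM in knockout libraries, against 4.52, 3.87 and 3.69 FPKM in wild type (log2 estimate -0.25, SE 0.10). Its FPKM values overlapped, while its TMM-scaled values did not, as for 4.51% of all genes with the knockout lower. Thra, Hcfc1 and Thrb followed, with log2 fold changes of -0.22, -0.19 and 0.17.

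Upstream of PGC-1α, 12 of 36 estimates were above 0 and the median was -0.06. Fnip1, the folliculin partner that restrains AMPK signalling and oxidative fibre character in mouse muscle, had 10.76, 8.47 and 7.41 FPKM in Tmem182-/- muscle, against 7.32, 5.53 and 6.79 FPKM in wild type. Its groups did not overlap on either scale (log2 fold change 0.36, SE 0.12; edgeR unadjusted p = 0.021, adjusted p = 0.994). Mef2c, a muscle transcription factor that acts on the Ppargc1a gene, had 185.1, 157.8 and 161.4 FPKM in knockout libraries, against 144.2, 118.7 and 133.2 FPKM in wild type. Its groups stood apart too, with a log2 fold change of 0.28 (SE 0.13). In the other direction the TMM-scaled groups stood apart for 2 genes of the list, each with an estimate of -0.13. They were Crtc2, a CREB coactivator, and Mef2d, a relative of Mef2c, and were named after their values were seen. Over all genes, 4.67% stood apart with the knockout higher and 4.51% with it lower. Zfp746, a repressor of Ppargc1a known as PARIS, and the p38 kinase gene Mapk12 had estimates of -0.24 and -0.26 with overlapping groups.

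For mitochondrial DNA maintenance and transcription, the genes that act beside Tfam, 8 of 18 estimates were above 0 and the median was -0.02. Rnaseh1, the nuclease that removes primer RNA, had 3.27, 3.17 and 2.18 FPKM in Tmem182-/- muscle, against 3.56, 3.95 and 3.12 FPKM in wild type (log2 estimate -0.39, SE 0.19). Its TMM-scaled groups stood apart, as for 4.51% of all genes with the knockout lower, although the FPKM values overlapped. Slirp, a stabiliser of mitochondrial messenger RNA, had an estimate of 0.26, and Top1mt and Polg had -0.28 and -0.13. Signs in these first 3 lists depended on the scale: with limma on log2(FPKM + 1), 16 of 27, 18 of 36 and 12 of 18 were above 0, as were 65.8% of all genes. Signs in the later lists depended on the processing too, as given below.

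Known PPAR target genes leaned most. All 26 tested had estimates above 0, against 51.1% of all genes, and the median was 0.38. None passed the test, and 5 had an unadjusted edgeR p under 0.05, against 3.55% of all genes. Ehhadh, the peroxisomal bifunctional enzyme, had 3.28, 2.78 and 2.22 FPKM in Tmem182-/- muscle, against 2, 1.54 and 2.10 FPKM in wild type (log2 estimate 0.48, SE 0.17). Its TMM-scaled groups stood apart, as for 4.67% of all genes with the knockout higher. Pdk4, the kinase that shuts off pyruvate oxidation, had 148.6, 96.3 and 12.2 FPKM in knockout libraries, against 25.6, 8.80 and 27.7 FPKM in wild type, and Angptl4, a lipoprotein lipase inhibitor, had 4.48, 0.73 and 0.32 FPKM in Tmem182-/- muscle, against 0.57, 0.08 and 0.29 FPKM in wild type. Their groups overlapped, and the log2 estimates were 1.91 for Pdk4 (SE 0.76) and 2.37 for Angptl4 (SE 0.94).

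The listed genes too low to be tested were Acot1, a thioesterase with 1.5 FPKM in knockout library 1 and 0.25 FPKM or less in the other 5 libraries, the hormone gene Fgf21 and the orphan receptor gene Nr0b2, both near 0 throughout.

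The PPAR list had its extremes in the same libraries. Of its 26 genes, 25 were highest in knockout library 1 and 23 lowest in wild-type library 2, as Ppara was. The share of all genes with their extremes in these libraries was not counted. Without knockout library 1, 18 of the 26 estimates were above 0 with a median of 0.05. Without wild-type library 2, 21 of the 26 were above 0 with a median of 0.17. Without both, 8 of 26 were above 0 and the median was -0.09, a fall that follows in part from leaving out the libraries with the extremes. With the level of slow-fibre genes as covariate, 25 of 26 were above 0 with a median of 0.17. By voom, which weights libraries by quality, 21 of 26 were above 0 with a median of 0.09, against 49.7% of all genes. The part of adipocyte and other cell RNA in this pattern was not tested.

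PGC-1 and ERR targets, largely of the citric acid cycle and respiratory chain, were above 0 for 29 of 34 genes, with a median of 0.07. Mb, which encodes the oxygen store myoglobin, had 3004, 923.5 and 413.99 FPKM in knockout libraries, against 1150.01, 139.9 and 830.2 FPKM in wild type (log2 estimate 0.89, SE 0.80). It spanned a wide range with overlapping groups. Ndufb5, a complex I subunit, had 283.2, 212.8 and 200.5 FPKM in Tmem182-/- muscle, against 215.4, 163.99 and 194.05 FPKM in wild type (0.21, SE 0.12). Without wild-type library 2 the count above 0 was 10 of 34, and without knockout library 1 as well it was 4. It was 9 of 34 by voom with quality weights and 18 of 34 with the slow-fibre covariate. With limma on log2(FPKM + 1) it was 34 of 34.

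NRF1 and GABP targets were above 0 for 15 of 19 genes, with a median of 0.07. Tomm20, a receptor of the outer membrane import pore, had 13.35, 12.26 and 11.60 FPKM in knockout libraries, against 10.32, 10.63 and 9.51 FPKM in wild type (log2 estimate 0.22, SE 0.10). Tomm34, a cytosolic import chaperone, had 7.54, 6.71 and 6.66 FPKM in Tmem182-/- muscle, against 7.65, 8.5 and 7.35 FPKM in wild type (-0.24, SE 0.11). On the TMM scale Tomm20 and Tomm34 stood apart, in opposite directions, as did 9.18% of all genes in either direction. Tomm70a, another import gene of the list, had overlapping groups (log2 estimate 0.12). Cycs, which encodes cytochrome c, and Sco2, a copper chaperone of cytochrome oxidase, each had an estimate of 0.28. Without wild-type library 2 the count above 0 was 8 of 19. It was also 8 of 19 by voom with quality weights, and 13 of 19 with the slow-fibre covariate. With limma on log2(FPKM + 1) it was 16 of 19.

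**Figure D5:**
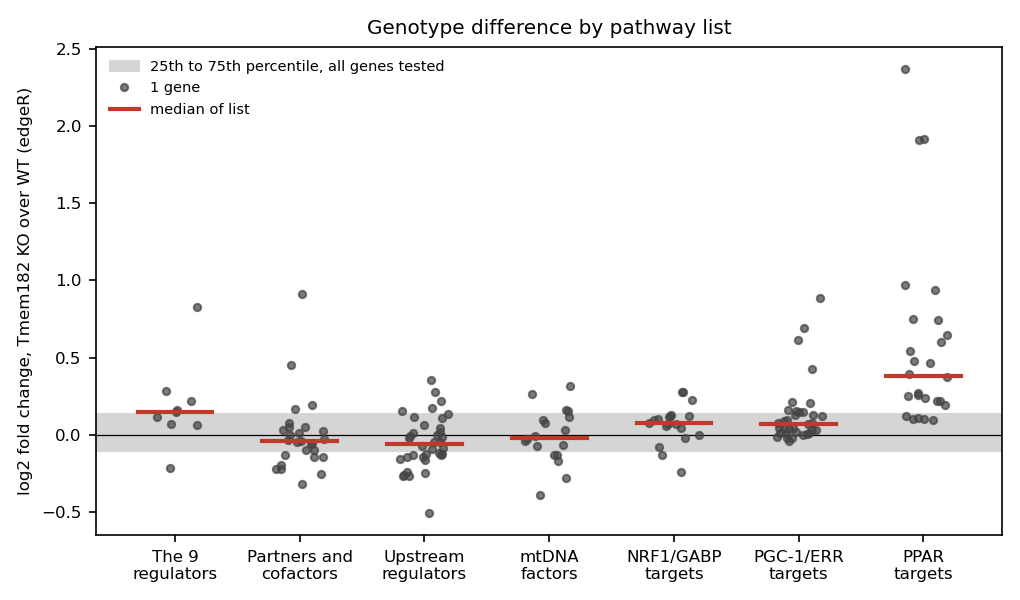
Log2 fold change, knockout over wild type, of each tested gene in the 6 network lists and of the 9 regulators; points are genes, red bars are list medians and the grey band is the 25th to 75th percentile of all genes tested. PPAR targets all lie above 0 with a median of 0.38, and the other lists have medians between -0.06 and 0.07.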

How the data were processed

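RNA-seq of gastrocnemius was analysed from 3 Tmem182-/- and 3 wild-type libraries, grouped by the genotype label. Per the file headers, the deposited tables give a read count and an expression value for each gene. The deposited read counts are expected counts, since many are not whole numbers, and were not normalized. The expression values deposited beside them are FPKM, scaled by the authors to transcript length and library total. Per the submitters' processing notes, the tools were RSEM 1.2.12, Bowtie2 2.2.5 and HISAT2 2.0.4 and the build GRCm38. The sources used here do not give their roles, the annotation or whether strand was used. RSEM divides reads shared by several transcripts by estimation, so genes overlapping others are less certain.

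Rounding the expected counts to whole numbers shifted values by 0.5 at most. The filterByExpr filter (minimum count 10) left 12774 genes, and TMM scaled the libraries. The main comparison of genotypes was the two-sided quasi-likelihood test of edgeR 4.0.16 in R 4.3.3. Its p-values were adjusted by Benjamini-Hochberg over the 12774 genes, at a threshold of 0.05. Log2 CPM used a prior count of 2, and a standard error is the absolute log2 fold change over the square root of F. Single ratios and neighbouring levels were compared by exact permutation tests. The scripts were tested on simulated data. No pair of libraries looked like a repeat deposit, the smallest chi-square per degree of freedom being 13.6.

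The 9 regulators, the gene lists and the tests were chosen with earlier results of these data known. The genes named from each network list are the 4 with the smallest unadjusted p, beside Tmem182, Myh7, Myh2, Myh4 and listed genes too low to be tested (1 gene that the rule names is not reported here), and Pprc1, Esrrb, Pparg, Crtc2 and Mef2d were added after their values were seen. Likeness between genes is the root mean square difference of deviations from the 6-library mean, for genes of at least 1 FPKM on average, and the 3 nearest genes are named for the 3 most variable regulators. Gene positions come from GENCODE M21 on GRCm38. The alternatives tried were the Wald test and the size factors of DESeq2 1.42.0, voom with quality weights and log2(FPKM + 1) in limma 3.58.1, a covariate for slow-fibre level, a replicate block, single libraries left out (also knockout library 1 and wild-type library 2 together, chosen after seeing the data), no filter, and a filter at 5 FPKM.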

Additional observations from a re-analysis of the deposited data

How the results depend on the processing

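No regulator passed the threshold under any alternative. The edgeR count of 1 gene called overall became 6 by the DESeq2 Wald test, 2 with the slow-fibre level as covariate, and 32 without knockout library 1 and wild-type library 2 together (chosen after seeing the data); with 1 library left out it ran from 0 to 1, being 0 without knockout library 2 or without wild-type library 3. The median log2 fold change of the 9 regulators was -0.061 without both libraries and 0.03 to 0.24 with 1 left out. Without both, the estimate became -0.061 for Ppargc1a, -0.41 for Ppargc1b, -0.058 for Esrra, -0.24 for Esrrg, -0.59 for Ppara and -0.082 for Gabpa. With voom quality weights Ppargc1b was -0.28 and Ppara -0.16, and with the slow-fibre covariate they were -0.019 and -0.013. With 1 library left out, Ppargc1b ran from -0.17 to 0.24, Ppara from -0.22 to 0.63, Ppard from -0.0034 to 0.14, Ppargc1a from 0.033 to 0.24, Esrra from 0.027 to 0.18, Esrrg from 0.18 to 1.19 and Gabpa from 0.029 to 0.28. The log2 ratio differences ran from -0.13 to 0.17 for Ppargc1a over Ppargc1b, from -1.21 to -0.21 for Esrra over Esrrg and from -0.27 to 0.60 for Ppara over Ppard. The cause was not tested.

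Whether replicate numbers pair the samples could not be settled with 3 libraries a group. Deviations from group means correlated at 0.524, 0.179 and -0.122 for numbers 1, 2 and 3, and at -0.474 to 0.427 for unlike numbers. With a replicate block, 1 gene was called, the estimate was 0.22 for Tfam and 0.86 for Esrrg, and no call changed. A mean of at least 5 FPKM kept 5 of the 9 regulators.

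With 3 libraries a group, a small change in any regulator was not detectable. Wild-type library 2 gave 88 counts for Esrrg, the lowest depth behind any regulator.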
